A study of Homo sapiens with 12 samples.

Results

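SW480 and SW620 are established human colorectal cancer lines from 1 patient, and the comparison described here takes the 6 libraries of these lines out of the 12 of the series. SW480 was derived from the primary tumour and SW620 from a metastatic site. Each line was sequenced as 3 biological replicates of untreated cells grown in DMEM with serum, so the groups share patient, medium and lack of treatment and differ in the line. The remaining 6 libraries are PEO4 ovarian cancer cells grown in RPMI medium, with or without TGFbeta at 10 ng/mL for 6 days, and they were used to measure stray reads and in 1 alternative fit of all 12 libraries. The libraries hold total RNA after removal of ribosomal RNA, so polyadenylated and non-polyadenylated transcripts were both counted. Each line is 1 culture-adapted isolate, and a difference between them cannot be told apart from a difference between any pair of isolates of 1 tumour. The series was set up to ask why primary and metastatic cells answer differently to 2 small molecule drugs, and the comparison below asks how the untreated lines differ across the whole transcriptome.

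In the intestinal crypt, Wnt ligands keep stem cells dividing through the coactivator beta-catenin, and daughter cells that leave the niche mature under factors such as CDX2 and HNF4A into absorptive or secretory cells. Most colorectal cancers lose the brake on beta-catenin, APC, and keep parts of this program. Epithelial cells also hold to each other through cadherins, claudins and keratin-anchored desmosomes and to the basement membrane through integrins and laminins.

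The 6 libraries held between 14531420 and 22028956 gene-assigned counts. Values are CPM, counts of a gene per 1000000 counts of the library after TMM scaling, and are listed for replicates 1, 2 and 3 in that order. Fold changes are log2 values of SW620 over SW480, so a positive value is higher in SW620. The value after ± is an approximate standard error, the absolute log2 fold change divided by the square root of the test's F statistic. Adjusted p-values come from edgeR's quasi-likelihood test over all 20941 tested genes (n = 3 per line). Among the markers that check the labels, the epithelial genes EPCAM, KRT8, KRT18, KRT19, CDH1 and CDX2 were detected in all 6 libraries. Of 10 immune markers 2 reached the level needed for a test, and their summed level was at most 8.98 CPM in any library. Of 9 tested ovarian and Mullerian markers 4 were higher in SW620 and 0 were lower, and their summed level ran from 126 to 151 CPM in SW480 and from 158 to 229 CPM in SW620. The summed level of the fibroblast markers ranged from 7.55 to 8.16 CPM in SW480 and from 12.2 to 23 CPM in SW620. Replicate 2 of each line stood apart from replicates 1 and 3, with 14.3% and 12.8% of its counts from mitochondrial DNA, 79.7% and 80.0% from nuclear protein-coding genes and the highest share of long non-coding RNA. SW620 replicate 3 held reads of PEO4 type at 1.20% of the PEO4 level, over 27 genes that were at or under 3 counts in the other 5 libraries. The same measure was 0.123% to 0.647% in the other libraries, on 2 or 3 genes each. Such reads can add to low SW620 values, and the share they could account for is given beside genes with a fitted fold change where it exceeds 30%. Genes were named by a rule of size within each list and over all genes. FOXA1, FOXA2, MYB, ISX, GATA6, EPHB2, EPHB3, AXIN2, CD44, TCF7, FZD1, FZD7, FGFR2, ERBB2, ERBB3, JAG1, NRARP, BMP2, NQO1, MIR200CHG, SNHG18, MAGEB2, HSD17B2, LCP1, MT1F and MT1X fall outside that rule and were chosen after their values were seen.

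The lines differed at 6385 genes, 30.5% of those tested (adjusted p under 0.05). Of these, 2835 were higher in SW620 (13.5% of tested genes) and 3550 were lower (17.0%), with a median log2 fold change of 0.03 over all tested genes. Without SW480 replicate 1 the test called 4253 genes, 1825 of them higher, and without SW480 replicate 3 it called 4463, 1827 of them higher. Replicate values did not overlap between the lines at 9261 genes, or 44.2%. These shares are the background for every list below, since in a comparison with so many differences any list of this size holds some. Protein-coding genes were called more often, at 35.9% of those tested, which is the closer background for lists of such genes. A gene counted too low in both lines was not tested, so lists are described by the members that could be tested.

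**Figure D1:**
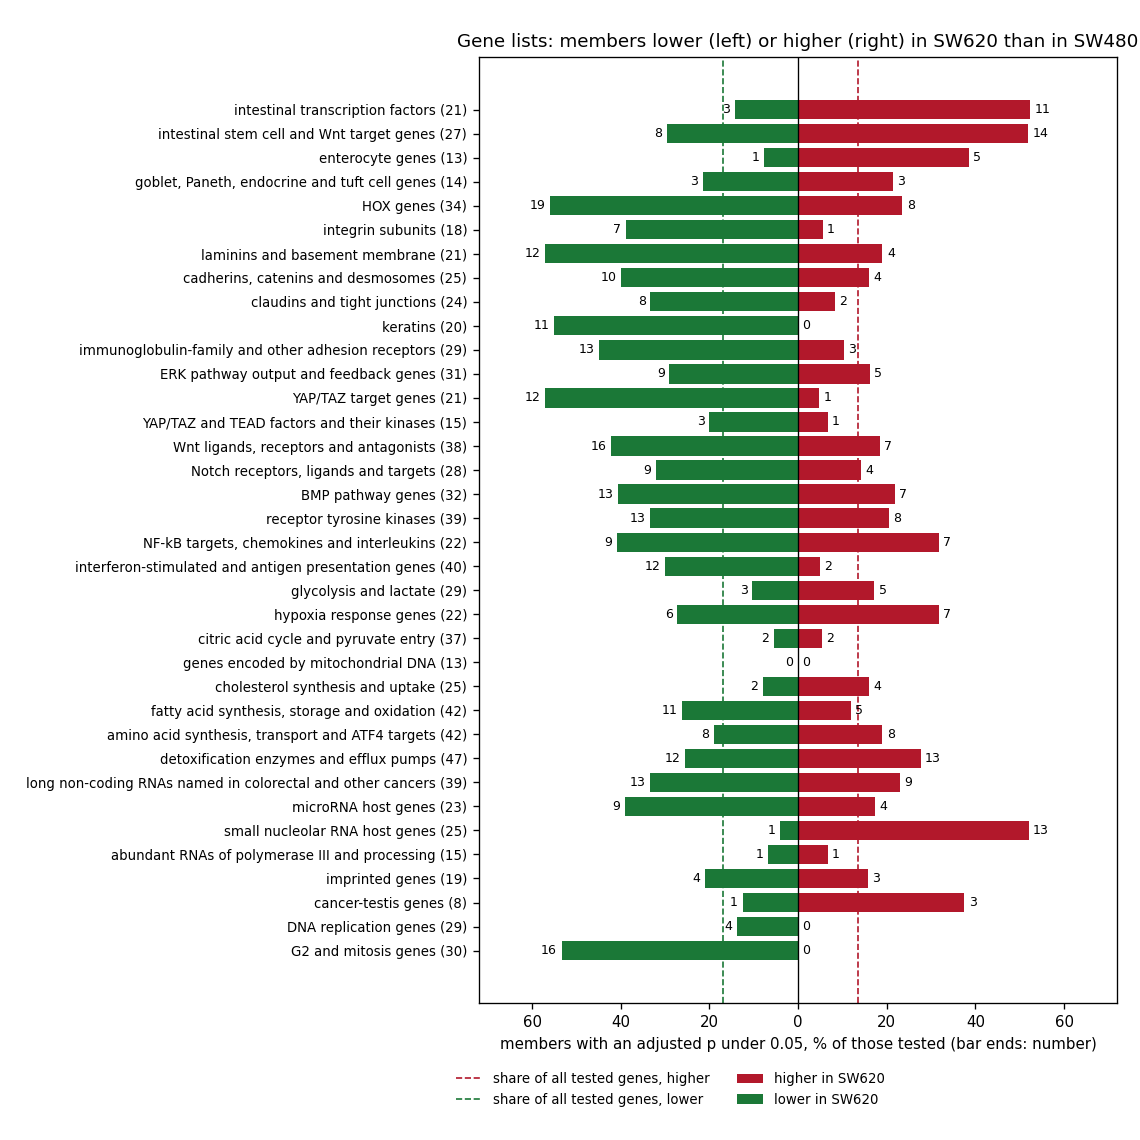
For 36 gene lists, bars show the percentage of tested members that were lower (left, green) or higher (right, red) in SW620, with the number of genes at the bar ends and the number tested in brackets. Dashed lines mark the shares over all tested genes, 17.0% lower and 13.5% higher. Intestinal transcription factors (11 higher, 3 lower) and small nucleolar RNA host genes (13 higher, 1 lower) lie to the right, and keratins (0 higher, 11 lower), YAP/TAZ targets (1 higher, 12 lower) and mitotic genes (0 higher, 16 lower) lie to the left.

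Transcription factors of the gut epithelium were mostly higher in SW620. Of 24 on the list 21 were tested, 11 were higher and 3 lower, 66.7% in all against 30.5% of all tested genes, with a median log2 fold change of 0.57. HNF4A, the nuclear receptor that drives enterocyte and hepatocyte genes, stood at 16.5, 22.3 and 21.0 CPM in SW480 and 209, 161 and 242 CPM in SW620. Every SW620 library lay far above every SW480 library (log2 fold change 3.36 ± 0.22, adjusted p = 1.04e-05). In such bulk samples more cells that express a gene and more RNA per cell cannot be told apart. HNF4G, a relative of HNF4A, stood at 0.499, 0.322 and 0.397 CPM in SW480 and 24.5, 19.7 and 24.6 CPM in SW620, and the lines again did not overlap (log2 fold change 5.79 ± 0.27, adjusted p = 2.67e-06). The pioneer factor FOXA3 stood at 2.16, 2.90 and 3.00 CPM in SW480 and 30.9, 18.3 and 45.3 CPM in SW620 (log2 fold change 3.55 ± 0.35, adjusted p = 9.09e-05). FOXA2, MYB and GATA6 had log2 fold changes of 3.48 ± 0.30, 3.13 ± 0.21 and 2.81 ± 0.53. ISX, an intestinal homeodomain factor, was at or under 3 counts in each SW480 library and at least 18.5-fold higher, and both GATA6 and ISX stayed under 5 CPM in every library.

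The regulators did not all move one way. CDX2, the master factor of intestinal identity, stood at 18.1, 20.6 and 23.3 CPM in SW480 and 18.1, 17.7 and 25.5 CPM in SW620, and the libraries of the lines were interleaved (log2 fold change -0.02 ± 0.20, adjusted p = 0.960). PDX1, a factor of foregut and pancreas, was lower (log2 fold change -1.98 ± 0.31, adjusted p = 0.00130). It lies in a stretch of chromosome 13, described below, where 89 of 120 genes were lower. FOXA1, at 2.5, 1.68 and 2.32 CPM in SW480, was at or under 3 counts in each SW620 library and so at least 13-fold lower.

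Promoters gave a view that the lists did not use. RefSeq promoters (GRCh38.p14, 250 bases before to 50 after each start) were searched on both strands, and a gene counted once if any of its starts matched. The HNF4-type letters CAAAGTCCA occur in 0.472% of 27305 genes with a promoter, and in the same share of the tested ones. They occur in 16 of 1810 genes higher in SW620 (0.884%), in 9 of 2365 lower genes (0.381%) and in 31 of 7679 genes that did not pass (0.404%). The TCF/LEF letters ATCAAAG occur in 3.18% of all genes with a promoter, and in 2.98%, 2.20% and 1.95% of the same sets in that order (2.16% of all tested genes). The TEAD letters GGAATG occur in 16.7% of all, and in 15.5%, 17.0% and 14.8% of the sets (15.4% of all tested genes). The motifs were chosen after values were seen, no test was made, and a match describes letters and not binding.

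Crypt stem cell and Wnt target genes split into members that were higher and members that were lower. Of 27 tested genes 14 were higher and 8 were lower, 81.5% together, and the median log2 fold change was 0.69. LGR5, the R-spondin receptor that marks crypt stem cells, stood at 0.999, 1.81 and 1.02 CPM in SW480 and 103, 89.3 and 119.7 CPM in SW620. SW480 stood under 2 CPM and SW620 was high in all replicates (log2 fold change 6.36 ± 0.27, adjusted p = 2.28e-06). SMOC2, a matrix protein of the stem cell signature, stood at 0.333, 0.322 and 0.340 CPM in SW480 and 70.8, 55.8 and 83.0 CPM in SW620 (log2 fold change 7.69 ± 0.27, adjusted p = 1.57e-06). PROM1, which encodes the surface protein CD133, stood at 0.277, 0.516 and 0.566 CPM in SW480 and 105, 90.7 and 117 CPM in SW620 (log2 fold change 7.83 ± 0.27, adjusted p = 1.57e-06), 228-fold higher. The Wnt feedback inhibitors NKD1 and NOTUM were higher from a high base, at 958, 1482 and 1274 CPM in SW480 and 5436, 5863 and 5198 CPM in SW620 for NKD1 and 159, 214 and 240.1 CPM in SW480 and 877, 782 and 1106 CPM in SW620 for NOTUM. Their log2 fold changes were 2.15 ± 0.25 and 2.17 ± 0.24, and both were among the 10 largest gains in CPM of the called genes. The ephrin receptors EPHB2 and EPHB3, which sort cells along the crypt, had log2 fold changes of 2.79 ± 0.25 and 1.5 ± 0.24.

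Other targets of the same pathway were lower in SW620. LEF1, a Wnt-responsive partner of beta-catenin, stood at 73.2, 72.9 and 83.2 CPM in SW480 and 4.46, 2.92 and 6.19 CPM in SW620 (log2 fold change -4.07 ± 0.27, adjusted p = 1.01e-05). APCDD1, a membrane inhibitor of Wnt, stood at 984, 945 and 1163 CPM in SW480 and 134, 119.7 and 166 CPM in SW620 (log2 fold change -2.88 ± 0.22, adjusted p = 2.07e-05). DKK4, a secreted inhibitor, stood at 4.05, 8.13 and 7.70 CPM in SW480 and 0.163, 0.304 and 0.103 CPM in SW620 (log2 fold change -5.10 ± 0.51, adjusted p = 1.02e-04). AXIN2, a common reporter of beta-catenin activity, stood at 689, 694 and 729 CPM in SW480 and 249.9, 242 and 296 CPM in SW620. No library of one line reached the range of the other (log2 fold change -1.42 ± 0.18, adjusted p = 3.89e-04), and 25.2% of its exonic length overlaps a gene annotated on the same stretch. CD44 (-2.52 ± 0.19) and TCF7 (-1.26 ± 0.16) were lower as well. CTNNB1, which encodes beta-catenin, was lower too, at 1482, 937 and 1592 CPM in SW480 and 397, 236 and 529 CPM in SW620 (log2 fold change -1.79 ± 0.33, adjusted p = 0.00332). APC stood at 116, 114 and 121 CPM in SW480 and 87.6, 80.4 and 79.1 CPM in SW620 (log2 fold change -0.51 ± 0.14, adjusted p = 0.0259). The call for APC held in 6 of 13 alternative analyses, and it was lost without any 1 library other than SW620 replicate 3 (adjusted p = 0.0532 to 0.148).

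**Figure D2:**
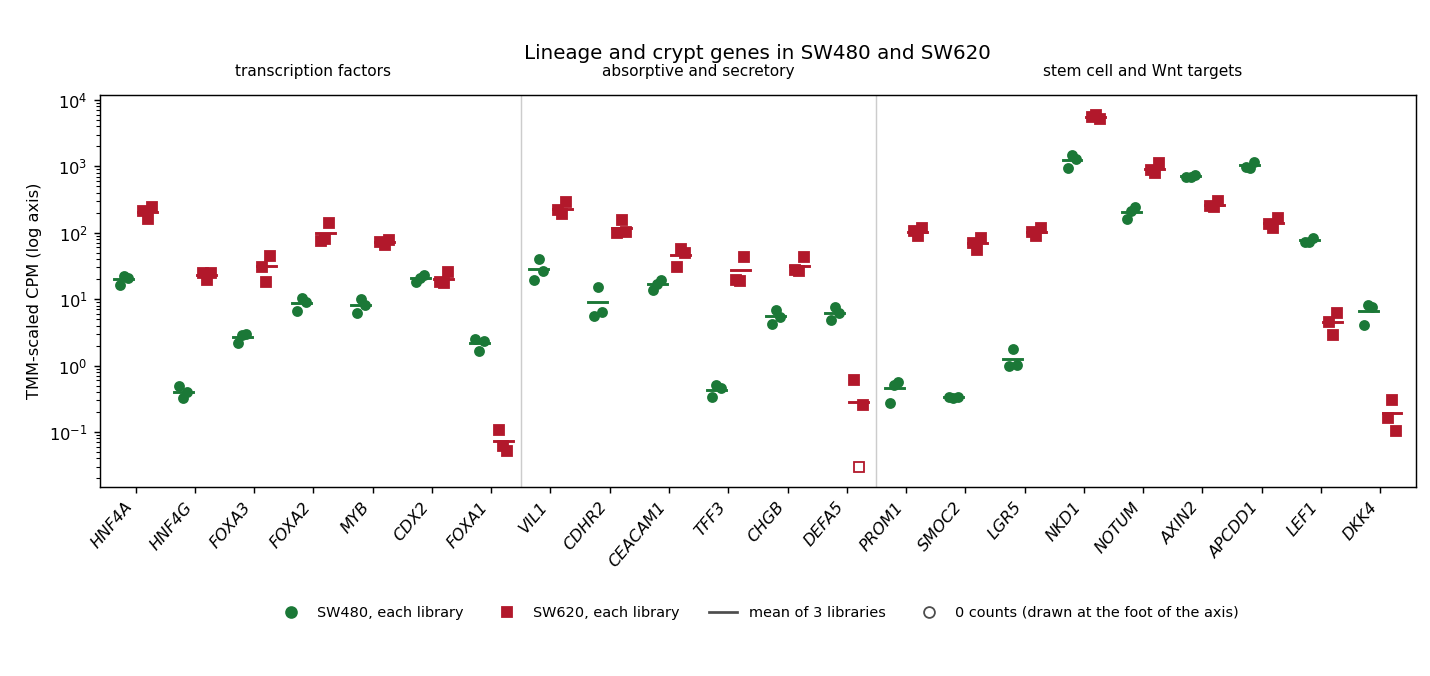
Points are single libraries (green circles SW480, red squares SW620) and bars the mean of 3, in TMM-scaled CPM on a log axis, and an open symbol is a library with 0 counts. HNF4A, HNF4G, PROM1, SMOC2 and LGR5 are high only in the red squares, CDX2 overlaps between the lines, and AXIN2, APCDD1, LEF1 and DKK4 are lower in SW620.

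Genes of mature gut cells were mostly too low to test. Of 35 enterocyte genes 13 were tested, 5 were higher, 1 was lower and 7 did not pass. VIL1, which bundles actin in microvilli, stood at 19.1, 40.8 and 26.5 CPM in SW480 and 216, 191 and 286 CPM in SW620 (log2 fold change 3.00 ± 0.30, adjusted p = 9.94e-05), although 44.0% of its exonic length overlaps USP37. CDHR2, a protocadherin that links microvilli, stood at 5.60, 15.4 and 6.51 CPM in SW480 and 100.1, 154 and 101 CPM in SW620 (log2 fold change 3.69 ± 0.40, adjusted p = 1.52e-04). CEACAM1 was higher by 1.46 ± 0.25 on the log2 scale. The sulfate carrier SLC26A2 was the 1 lower member (log2 fold change -0.76 ± 0.19, adjusted p = 0.0156), a call lost when SW480 replicate 1, SW480 replicate 3 or SW620 replicate 1 was left out (adjusted p = 0.0655 to 0.0894). Among 14 tested genes of goblet, Paneth, endocrine and tuft cells, 3 were higher and 3 lower. TFF3, a goblet cell peptide, stood at 0.333, 0.516 and 0.453 CPM in SW480 and 19.6, 18.6 and 43.4 CPM in SW620 (log2 fold change 5.96 ± 0.45, adjusted p = 2.26e-05), and CHGB, a secretory granule protein, at 4.27, 6.77 and 5.44 CPM in SW480 and 27.5, 26.2 and 42.6 CPM in SW620 (log2 fold change 2.55 ± 0.26, adjusted p = 1.19e-04). Against these, the Paneth cell defensin DEFA5 stood at 4.77, 7.61 and 6.29 CPM in SW480 and 0.599, 0 and 0.258 CPM in SW620 (log2 fold change -4.38 ± 0.71, adjusted p = 0.00157).

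HOX genes, which record position along the body axis, divided by cluster. Of 34 tested HOX genes 8 were higher and 19 lower, with a median of -0.83. HOX calls numbered 15 without SW480 replicate 1, 16 without SW480 replicate 3 and 17 without SW620 replicate 1, against 27 with all 6 libraries. All 9 tested HOXB genes on chromosome 17 were lower in SW620, by 0.85 to 3.15 on the log2 scale, while 6 of 9 tested HOXC genes on chromosome 12 were higher and none was lower. The HOXB genes lie in chr17:48133440-50397553, where 21 of 40 tested protein-coding genes, these included, were lower and 2 higher (median -0.76). The summed level of HOXB was 1035, 1084 and 976 CPM in SW480 and 265, 309.6 and 314 CPM in SW620. For HOXC the sums were 76.9, 79.8 and 74.1 CPM in SW480 and 126, 136 and 157 CPM in SW620. Both sums separated the lines without overlap, in opposite directions. HOXB8 carried the largest fall, from 207, 142 and 206 CPM in SW480 to 17.0, 16 and 29.2 CPM in SW620 (log2 fold change -3.15 ± 0.28, adjusted p = 5.46e-05). HOXB2 was lower too (log2 fold change -2.62 ± 0.30, adjusted p = 2.35e-04), and PEO4-type reads could account for 81.6% of its counts in SW620 replicate 3. HOXC13 was the most raised member (log2 fold change 2.17 ± 0.26, adjusted p = 3.00e-04), and HOXA13, the most posterior gene of its cluster, was lower (log2 fold change -2.55 ± 0.30, adjusted p = 2.44e-04). Genes within a cluster overlap and share transcripts, so neighbouring members are not independent.

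Keratins, the intermediate filaments of epithelia, were lower in SW620 or did not pass the test. Of 20 tested keratin genes 11 were lower and 0 were higher (median -1.30). KRT5, the basal keratin of stratified epithelia, stood at 1871, 1218 and 2294 CPM in SW480 and 8.22, 10.3 and 1.29 CPM in SW620. It was among the 10 largest falls in CPM (log2 fold change -8.10 ± 0.74, adjusted p = 6.19e-05). KRT13, a keratin of squamous mucosa, stood at 82.2, 47.1 and 74.3 CPM in SW480 and 0.218, 0.364 and 0.0516 CPM in SW620 (log2 fold change -8.33 ± 0.43, adjusted p = 4.08e-06), with 39.7% of its counts in SW620 replicate 3 within reach of PEO4-type reads, and KRT23 at 698, 531 and 664 CPM in SW480 and 44.6, 25.1 and 45.0 CPM in SW620 (log2 fold change -4.04 ± 0.28, adjusted p = 1.45e-05). The simple epithelial keratins did not pass the test. KRT8 stood at 2789, 1808 and 2867 CPM in SW480 and 2397, 1567 and 3272 CPM in SW620 (log2 fold change -0.04 ± 0.32, adjusted p = 0.936), KRT18 had a log2 fold change of -0.37 ± 0.34 (adjusted p = 0.458), and KRT19 one of -0.65 ± 0.31 (adjusted p = 0.145), which became a call without SW620 replicate 3 (adjusted p = 0.0184). In all 3 genes the lines overlapped, and replicate 2 was the lowest of each line.

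Of the classical epithelial adhesion molecules, E-cadherin and EPCAM did not pass the test. CDH1, which encodes E-cadherin, stood at 48.4, 25.6 and 58.3 CPM in SW480 and 64.0, 32.8 and 68.3 CPM in SW620 (log2 fold change 0.32 ± 0.34, adjusted p = 0.537), and EPCAM at 139, 87.2 and 149.9 CPM in SW480 and 168, 104 and 195 CPM in SW620 (log2 fold change 0.31 ± 0.28, adjusted p = 0.456). Replicate 2 was the lowest library of each line in both genes, and the ranges overlapped. At each replicate number SW620 stood above SW480 in both genes, but the labels do not say whether the numbers pair the libraries. The overlap does not show that the lines are alike or that they differ. Other cadherins differed widely: of 25 tested cadherin, catenin and desmosome genes 4 were higher and 10 were lower. CDH11, a cadherin of mesenchyme, stood at 42.2, 37.1 and 50.1 CPM in SW480 and 0.109, 0.547 and 0.258 CPM in SW620 (log2 fold change -7.15 ± 0.37, adjusted p = 4.10e-06), and CDH3, which encodes P-cadherin, at 40.1, 29.2 and 44.1 CPM in SW480 and 0.816, 0.364 and 0.774 CPM in SW620 (log2 fold change -5.83 ± 0.31, adjusted p = 4.76e-06). SW620 held at most 1 CPM of either. PCDH19, a protocadherin of neurons, was the most raised member at 3.16, 6.71 and 6.23 CPM in SW480 and 106, 83.3 and 118 CPM in SW620 (log2 fold change 4.26 ± 0.30, adjusted p = 1.46e-05), followed by CDH13, a cadherin without a transmembrane domain, at 43.7, 36.9 and 41.6 CPM in SW480 and 188, 147 and 175 CPM in SW620 (log2 fold change 2.06 ± 0.17, adjusted p = 3.40e-05). CDH13 lies in a stretch of chromosome 16, described below, where 152 of 200 genes were higher. The plakophilin PKP1 was lower (log2 fold change -2.47 ± 0.43, adjusted p = 0.00228).

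Matrix receptors and basement membrane genes were lower more often than higher. Of 18 tested integrin subunits 7 were lower and 1 was higher. Integrin calls numbered 5 without SW480 replicate 1 and 5 without SW620 replicate 1, against 8 with all 6 libraries. ITGA3, which pairs with ITGB1 to bind laminin, stood at 749, 522 and 624 CPM in SW480 and 30.5, 33.5 and 50.8 CPM in SW620. The lines were far apart (log2 fold change -4.04 ± 0.27, adjusted p = 1.17e-05), and PEO4-type reads could account for 55.3% of the counts in SW620 replicate 3. ITGA3 lies in the same stretch of chromosome 17 as the HOXB genes, where 21 of 40 genes were lower. The vitronectin receptor chains ITGAV and ITGB5 had log2 fold changes of -1.99 ± 0.21 and -2.42 ± 0.24. Of 21 laminin and basement membrane genes 12 were lower and 4 higher, with a median of -1.08. Basement membrane calls numbered 10 without SW480 replicate 3 and 10 without SW620 replicate 1, against 16 with all 6 libraries. AGRN and LAMA5 were lower, with log2 fold changes of -1.80 ± 0.20 and -1.60 ± 0.21. The proteoglycan HSPG2, also called perlecan, moved the other way at 245, 251 and 272 CPM in SW480 and 459, 524 and 464 CPM in SW620 (log2 fold change 0.91 ± 0.17, adjusted p = 0.00323).

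Tight junction genes and adhesion receptors of the immunoglobulin family were lower more often than higher as well. Of 24 tested claudin and tight junction genes 8 were lower and 2 higher, 41.7% in all against 35.9% of tested protein-coding genes. CLDN7 stood at 84.8, 37.2 and 78.1 CPM in SW480 and 6.09, 5.34 and 10.2 CPM in SW620 (log2 fold change -3.21 ± 0.36, adjusted p = 2.09e-04), while the junction adaptor cingulin, encoded by CGN, was higher (log2 fold change 1.87 ± 0.22, adjusted p = 2.44e-04). Of 29 adhesion receptors 13 were lower and 3 higher. NCAM1, a neural adhesion molecule, stood at 71.9, 44.9 and 68.4 CPM in SW480 and 0.218, 0.911 and 0.206 CPM in SW620 (log2 fold change -7.15 ± 0.45, adjusted p = 8.74e-06), with 47.0% of its counts in SW620 replicate 3 within reach of PEO4-type reads, and CNTN1 was at least 69.2-fold lower, since each SW620 library held at most 3 counts. NRCAM, a relative of these, was higher at 0.832, 0.516 and 0.510 CPM in SW480 and 8.0, 4.80 and 6.19 CPM in SW620 (log2 fold change 3.33 ± 0.38, adjusted p = 2.27e-04).

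**Figure D3:**
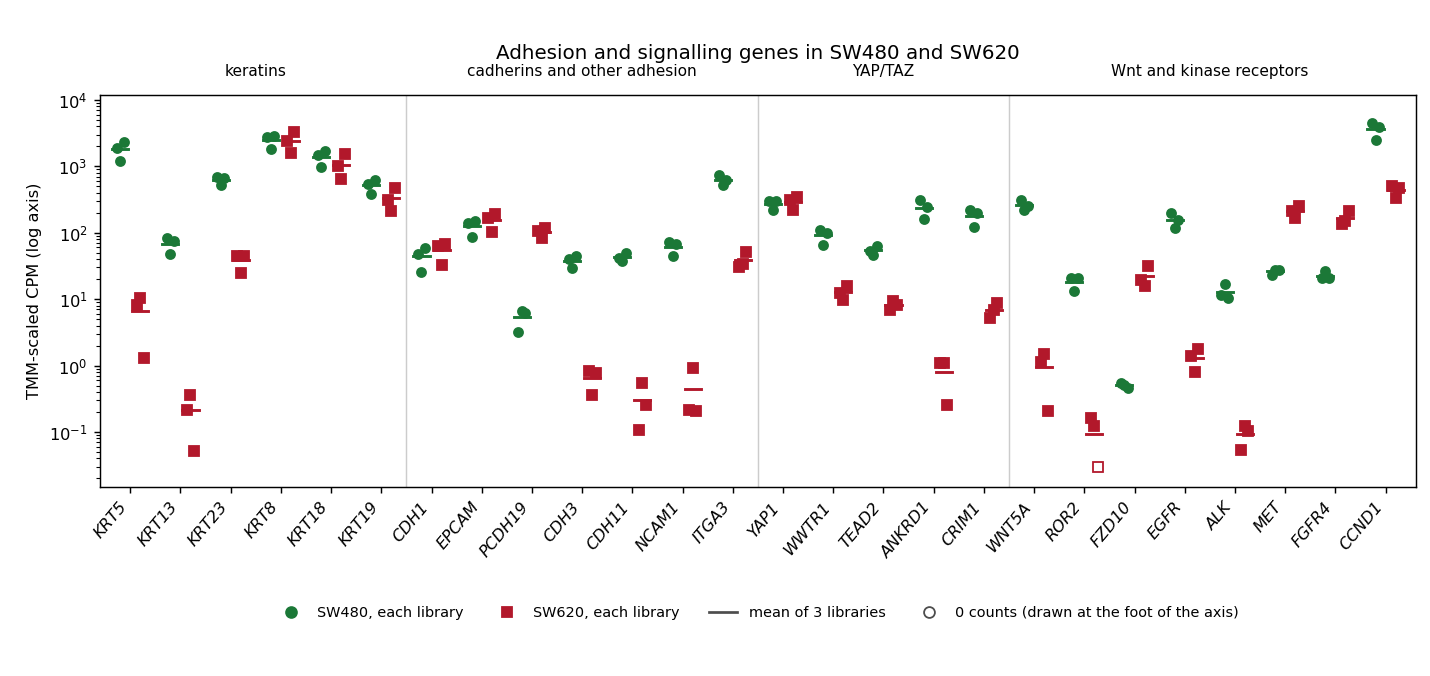
Points are single libraries (green circles SW480, red squares SW620) and bars the mean of 3, in TMM-scaled CPM on a log axis. KRT5, KRT13, CDH3, CDH11, NCAM1, ANKRD1, WNT5A, ROR2, EGFR and ALK are low only in SW620, PCDH19, FZD10, MET and FGFR4 are higher in SW620, and the lines overlap at KRT8, KRT18, KRT19, CDH1, EPCAM and YAP1.

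Wnt ligands and receptors were lower more often than higher. Of 38 tested ligands, receptors and antagonists 7 were higher and 16 were lower (median -0.45). WNT5A, the prototype of beta-catenin-independent Wnt signalling, stood at 309.7, 220.2 and 253 CPM in SW480 and 1.14, 1.52 and 0.206 CPM in SW620. Its receptor kinase ROR2 stood at 21.1, 13.2 and 20.8 CPM in SW480 and 0.163, 0.121 and 0 CPM in SW620. WNT5A had a log2 fold change of -8.11 ± 0.50, and ROR2, at or under 3 counts in each SW620 library, was at least 110.2-fold lower. WNT7A was likewise at least 52.8-fold lower. The Frizzled receptors moved apart: FZD10 stood at 0.555, 0.516 and 0.453 CPM in SW480 and 19.6, 15.8 and 31.2 CPM in SW620 (log2 fold change 5.43 ± 0.35, adjusted p = 1.01e-05), while FZD7 stood at 54.5, 27.9 and 52.6 CPM in SW480 and 0.544, 0.425 and 0.671 CPM in SW620 (log2 fold change -6.33 ± 0.36, adjusted p = 5.52e-06) and FZD1 had a log2 fold change of -4.70 ± 0.31. LRP5, the co-receptor of the beta-catenin branch, was higher at 158, 153 and 177 CPM in SW480 and 596, 593 and 814 CPM in SW620 (log2 fold change 2.04 ± 0.20, adjusted p = 1.01e-04), and the beta-catenin inhibitor CTNNBIP1 was higher by 1.38 ± 0.20.

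Targets of YAP and TAZ, the coactivators held back by the Hippo kinases, were mostly lower in SW620, while YAP1 itself did not pass the test. Of 21 tested target genes 12 were lower and 1 was higher (median -1.42). ANKRD1, one of the most responsive targets, stood at 306, 163 and 245 CPM in SW480 and 1.09, 1.09 and 0.258 CPM in SW620 (log2 fold change -8.20 ± 0.47, adjusted p = 5.92e-06). CRIM1 stood at 223, 122 and 195 CPM in SW480 and 5.17, 6.92 and 8.67 CPM in SW620 (log2 fold change -4.70 ± 0.30, adjusted p = 9.80e-06), and PEO4-type reads could account for 57.4% of its counts and 59.4% of those of ANKRD1 in SW620 replicate 3. TGFB2, a ligand, was lower (-5.02 ± 0.31), and GADD45A was the 1 higher member (log2 fold change 1.20 ± 0.18, adjusted p = 0.00102). YAP1 stood at 296, 220.3 and 301 CPM in SW480 and 307, 219 and 344 CPM in SW620 (log2 fold change 0.09 ± 0.22, adjusted p = 0.803). WWTR1, which encodes TAZ, differed: it stood at 109, 66.4 and 99.9 CPM in SW480 and 12.4, 9.66 and 15.9 CPM in SW620 (log2 fold change -2.86 ± 0.26, adjusted p = 5.46e-05). Of the TEAD factors that carry both to DNA, TEAD2 (-2.74 ± 0.19) and TEAD3 (-0.99 ± 0.18) were lower, and TEAD1 (-0.25 ± 0.19, adjusted p = 0.374) and TEAD4 (-0.17 ± 0.19, adjusted p = 0.534) did not pass. VGLL4, a competitor of YAP for TEAD, was higher (log2 fold change 1.55 ± 0.17, adjusted p = 1.77e-04), with 23.7% of its exonic length shared with ATG7.

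The set of receptor tyrosine kinases changed members. Of 39 tested 8 were higher and 13 were lower. EGFR, the target of antibody therapy in colorectal cancer, stood at 199, 116 and 155 CPM in SW480 and 1.41, 0.790 and 1.75 CPM in SW620. The fall was 117-fold (log2 fold change -6.87 ± 0.34, adjusted p = 3.21e-06), and PEO4-type reads could supply all of the counts in SW620 replicate 3, at 103% of them. ALK was at or under 3 counts in each SW620 library and at least 77.2-fold lower, and FGFR2 was lower (-5.74 ± 0.64), with 90.5% of its counts in SW620 replicate 3 within reach of such reads. MET, the receptor of hepatocyte growth factor, stood at 23.1, 27.7 and 27.8 CPM in SW480 and 215, 169 and 254 CPM in SW620, without overlap (log2 fold change 3.02 ± 0.21, adjusted p = 1.24e-05). FGFR4 stood at 20.6, 26.4 and 20.5 CPM in SW480 and 137, 148 and 209 CPM in SW620 (log2 fold change 2.87 ± 0.22, adjusted p = 2.35e-05) and ERBB3, the kinase-poor partner of ERBB2, at 71.7, 62.8 and 73.4 CPM in SW480 and 293, 229 and 334 CPM in SW620 (log2 fold change 2.04 ± 0.19, adjusted p = 7.54e-05). ERBB2 itself was lower (log2 fold change -1.16 ± 0.18, adjusted p = 0.00129). Among 31 output and feedback genes of the ERK pathway, which these receptors feed, 5 were higher and 9 lower. CCND1, which encodes cyclin D1, stood at 4456, 2507 and 3932 CPM in SW480 and 499.9, 328 and 472 CPM in SW620 (log2 fold change -3.07 ± 0.31, adjusted p = 9.84e-05). The cytokine LIF was lower (log2 fold change -3.12 ± 0.18, adjusted p = 5.42e-06), while the feedback inhibitors SPRY1 and SPRY2 were higher by 2.06 ± 0.35 and 1.16 ± 0.25.

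Notch and BMP genes were mixed as well. MFNG, a glycosyltransferase that tunes Notch ligand choice, stood at 0.555, 1.16 and 1.53 CPM in SW480 and 123, 95.7 and 173 CPM in SW620 (log2 fold change 6.91 ± 0.38, adjusted p = 5.34e-06), and the ligands DLL4 and JAG1 were higher by 3.27 ± 0.31 and 2.33 ± 0.17. The receptor NOTCH2 stood at 298, 194 and 288 CPM in SW480 and 15.3, 15.8 and 26.7 CPM in SW620 (log2 fold change -3.75 ± 0.29, adjusted p = 2.46e-05), with 37.0% of its counts in SW620 replicate 3 within reach of PEO4-type reads. Of the targets several were lower, with HES5 at -4.86 ± 0.99, HEY2 at -3.71 ± 0.48 and the feedback gene NRARP at -3.19 ± 0.28. HES6, another member of the list, was higher (2.65 ± 0.25). In all, 4 of 28 tested Notch genes were higher and 9 lower. Of 32 BMP pathway genes 7 were higher and 13 lower. The inhibitory SMAD6 stood at 6.16, 7.74 and 7.87 CPM in SW480 and 53.5, 65.8 and 60.5 CPM in SW620 (log2 fold change 3.05 ± 0.18, adjusted p = 6.65e-06), and ID1, a BMP target, at 3.22, 4.84 and 7.82 CPM in SW480 and 30.1, 18.5 and 66.6 CPM in SW620 (log2 fold change 2.86 ± 0.50, adjusted p = 0.00228). ID2, of the same family, was lower at 252, 167 and 259.7 CPM in SW480 and 31.7, 24.4 and 39.8 CPM in SW620 (log2 fold change -2.82 ± 0.25, adjusted p = 5.53e-05). The antagonist CHRD was lower (-4.34 ± 0.47), and the ligand BMP2 was at least 20.1-fold lower.

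Immune signalling lists held members in both directions. Of 22 NF-kB targets, chemokines and interleukins 7 were higher and 9 lower. CXCL8, a neutrophil attractant, was higher (log2 fold change 3.86 ± 0.57, adjusted p = 9.26e-04), as was the NF-kB inhibitor TNFAIP3 (log2 fold change 2.37 ± 0.33, adjusted p = 7.45e-04). TNFAIP2 was lower (log2 fold change -3.60 ± 0.53, adjusted p = 9.45e-04), with 79.2% of its counts in SW620 replicate 3 within reach of PEO4-type reads. Of 40 interferon-stimulated and antigen presentation genes 2 were higher and 12 lower. Their called share of 35.0% was near that of tested protein-coding genes, 35.9%, and of all tested genes, 30.5%. Interferon and antigen presentation calls numbered 5 without SW480 replicate 1, 5 without SW480 replicate 3 and 6 without SW620 replicate 1, against 14 with all 6 libraries. CD74, the invariant chain, stood at 28.5, 21.9 and 32.5 CPM in SW480 and 0.707, 4.25 and 4.44 CPM in SW620 (log2 fold change -3.14 ± 0.52, adjusted p = 0.00171), and IFITM1 was lower (log2 fold change -4.26 ± 0.75, adjusted p = 0.00238). Up to 71.3% of the IFITM1 counts in SW620 replicate 3 are within reach of PEO4-type reads, and 32.5% of its exonic length overlaps IFITM2.

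Core energy metabolism held few differences in the main test. None of the 13 protein-coding genes of mitochondrial DNA passed the test in edgeR or DESeq2, and 0 had an unadjusted p under 0.05 in edgeR. Their median log2 fold change was -0.32, and their summed share overlapped between the lines. All counts from mitochondrial DNA made up 8.41%, 14.3% and 11.7% in SW480 and 7.59%, 12.8% and 8.69% in SW620, lower in SW620 at each replicate number. A fit that treated same-numbered libraries as blocks, which called 10667 genes in all, called 7 of these 13. Of 37 genes of the citric acid cycle 2 were higher and 2 lower, 10.8% in all and under the 30.5% of all genes. Citric acid cycle calls numbered 0 without SW480 replicate 1, 2 without SW480 replicate 2, 1 without SW480 replicate 3, 2 without SW620 replicate 1 and 8 without SW620 replicate 2, against 4 with all 6 libraries. In the block fit they numbered 13. IDH1 (-1.09 ± 0.26) and OGDH (-0.90 ± 0.25) were the lower members, and neither call held without SW480 replicate 1, SW480 replicate 3 or SW620 replicate 1, nor that of OGDH without SW620 replicate 2 (adjusted p = 0.0547 to 0.0892 for IDH1 and adjusted p = 0.0508 to 0.146 for OGDH). Of 29 glycolysis genes 5 were higher and 3 lower, 27.6% in all and under the 30.5% of all genes, and the block fit called 19. SLC2A3, the glucose carrier GLUT3, stood at 2123, 1412 and 2311 CPM in SW480 and 164, 135 and 203 CPM in SW620 (log2 fold change -3.54 ± 0.28, adjusted p = 2.92e-05). HK2, which traps glucose as its phosphate, stood at 58.9, 63.3 and 75 CPM in SW480 and 199.6, 155 and 262 CPM in SW620 (log2 fold change 1.64 ± 0.22, adjusted p = 5.83e-04). The carrier was higher in SW480 and the hexokinase in SW620, each without overlap.

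Hypoxia response genes were not shifted together, with 7 of 22 higher and 6 lower. CA9, a carbonic anhydrase of the cell surface, stood at 0.721, 1.29 and 0.906 CPM in SW480 and 33.6, 32.6 and 55.1 CPM in SW620 (log2 fold change 5.38 ± 0.32, adjusted p = 7.33e-06), although 38.5% of its exonic length overlaps ARHGEF39. VEGFA, the angiogenic ligand, stood at 36.8, 41.2 and 43.4 CPM in SW480 and 187, 146 and 217 CPM in SW620 (log2 fold change 2.18 ± 0.19, adjusted p = 5.14e-05). EPAS1, which encodes the oxygen-regulated factor HIF-2alpha, stood at 469, 216 and 385 CPM in SW480 and 2.45, 4.13 and 0.619 CPM in SW620 (log2 fold change -7.23 ± 0.62, adjusted p = 4.12e-05). SW620 replicate 3 was the lowest library for EPAS1, and PEO4-type reads could still account for 44.1% of its counts. The collagen modifier PLOD2 was higher by 3.64 ± 0.29, and P4HA2, of a related enzyme family, was lower (-1.82 ± 0.25).

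Lipid and amino acid genes included single large changes among many that did not pass. Of 25 cholesterol genes 4 were higher and 2 lower, the strongest being the sterol carrier STARD4 at 222, 150.1 and 203 CPM in SW480 and 43.6, 41.4 and 48.9 CPM in SW620 (log2 fold change -2.10 ± 0.19, adjusted p = 6.46e-05). The called share of the cholesterol list, 24%, was under the 35.9% of tested protein-coding genes. Cholesterol calls numbered 1 without SW480 replicate 1, 2 without SW480 replicate 2 and 2 without SW480 replicate 3, against 6 with all 6 libraries. Of 42 fatty acid genes 5 were higher and 11 lower, 38.1% in all and near the 35.9% of tested protein-coding genes. Fatty acid calls numbered 10 without SW480 replicate 1, against 16 with all 6 libraries. The storage genes DGAT2, which makes triglyceride, and PLIN2, which coats lipid droplets, were higher, at 3.38, 3.61 and 3.68 CPM in SW480 and 10.9, 14.7 and 19.8 CPM in SW620 for DGAT2 and 25.5, 17.6 and 30.4 CPM in SW480 and 80.7, 62.4 and 131 CPM in SW620 for PLIN2. Their log2 fold changes were 2.09 ± 0.27 and 1.90 ± 0.30. The nuclear receptors PPARD (log2 fold change -2.67 ± 0.19, adjusted p = 1.55e-05) and PPARA (log2 fold change -1.80 ± 0.16, adjusted p = 5.33e-05) were lower, and the lipase LPL was at least 68.4-fold lower. Of 42 amino acid and ATF4 target genes 8 were higher and 8 lower, also 38.1% in all. Amino acid calls numbered 25 without SW620 replicate 2, against 16 with all 6 libraries. SLC1A3, a carrier of glutamate and aspartate, stood at 37.6, 26.9 and 39.5 CPM in SW480 and 0.0544, 0.304 and 0.0516 CPM in SW620 (log2 fold change -7.98 ± 0.44, adjusted p = 5.15e-06), and PYCR1, which makes proline, was higher (log2 fold change 1.5 ± 0.30, adjusted p = 0.00507), with 29.7% of its exonic length under an overlapping gene.

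Detoxification genes split evenly, with 13 higher and 12 lower of 47, 53.2% in all. ABCC2, an efflux pump of the apical membrane, stood at 0.555, 2.90 and 0.453 CPM in SW480 and 45.2, 79.5 and 66.5 CPM in SW620 (log2 fold change 5.65 ± 0.58, adjusted p = 1.19e-04). AKR1B1, which reduces aldehydes and glucose, stood at 0.943, 0.193 and 0.736 CPM in SW480 and 26.2, 16.4 and 35.4 CPM in SW620 (log2 fold change 5.34 ± 0.47, adjusted p = 5.09e-05), and AKR1C3, which reduces steroids and prostaglandins, at 0.888, 0.774 and 0.510 CPM in SW480 and 19.6, 14.3 and 30.2 CPM in SW620 (log2 fold change 4.87 ± 0.38, adjusted p = 2.39e-05). Members of the AKR1C family resemble each other closely, so reads could be shared among them. CYP24A1, which inactivates vitamin D, stood at 78.6, 63.3 and 66.3 CPM in SW480 and 0.707, 0.911 and 0.980 CPM in SW620 (log2 fold change -6.31 ± 0.22, adjusted p = 1.57e-06). ALDH1A3, which makes retinoic acid, stood at 119, 103 and 128 CPM in SW480 and 7.24, 9.11 and 9.13 CPM in SW620 (log2 fold change -3.78 ± 0.18, adjusted p = 2.92e-06), and CYP26A1, which clears it, was lower too (log2 fold change -4.79 ± 0.58, adjusted p = 2.99e-04), with 33.6% of its counts in SW620 replicate 3 within reach of PEO4-type reads. NQO1, a common marker of the NRF2 response, stood at 149, 95.6 and 155 CPM in SW480 and 168, 107 and 243 CPM in SW620 and did not pass (log2 fold change 0.37 ± 0.31, adjusted p = 0.407).

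The share of called genes varied by gene class. Of tested protein-coding genes 35.9% were called, against 31.2% of long intergenic RNAs, 17.8% of antisense RNAs, 8.29% of processed pseudogenes and 5.71% of small nucleolar RNAs. LINC02058 had no count in SW480 and stood at 9.96, 15 and 6.76 CPM in SW620, at least 59.9-fold higher. C22orf34 was at least 122-fold higher, and RMST, a partner of neural transcription factors, at least 34.9-fold higher. LINC00261, which neighbours FOXA2 on chromosome 20, stood at 0.222, 1.03 and 0.0566 CPM in SW480 and 18.8, 24.7 and 24.3 CPM in SW620 (log2 fold change 5.73 ± 0.59, adjusted p = 1.16e-04). 86.1% of its exonic length overlaps another annotated RNA. FOXA2 itself stood at 6.60, 10.6 and 9.06 CPM in SW480 and 74.2, 80.1 and 138 CPM in SW620, higher in SW620 without overlap. LINC00460 stood at 1.55, 1.16 and 1.36 CPM in SW480 and 33.7, 28.8 and 47.0 CPM in SW620 (log2 fold change 4.74 ± 0.27, adjusted p = 5.42e-06). In the other direction LINC00173 was at least 136-fold lower, from 23.5, 27.4 and 17.2 CPM in SW480, and WNT5A-AS1, antisense to WNT5A, was at least 73.9-fold lower. CASC8, in the gene-poor region around MYC, was lower (log2 fold change -5.06 ± 0.49, adjusted p = 8.00e-05), as was HAGLR in the HOXD cluster (log2 fold change -4.19 ± 0.36, adjusted p = 4.18e-05). Of 39 tested long non-coding RNAs known from cancer 9 were higher and 13 lower.

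MicroRNAs are cut from longer host transcripts, and these libraries measure the hosts and not the mature microRNAs. Of 23 tested host genes 4 were higher and 9 lower (median -0.79). Mature sequences from RefSeq (GRCh38.p14) are printed for 5 hosts that passed the test, chosen after their values were seen, with the seed, bases 2 to 8, in capitals. The first 2 lie in MIR194-2HG on chromosome 11, the next 3 in MIR100HG on chromosome 11, the next 2 in MIR181A1HG on chromosome 1 and the last 2 in the lower hosts MIR503HG on chromosome X and MIR22HG on chromosome 17.
miR-192-5p: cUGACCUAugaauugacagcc
miR-194-5p: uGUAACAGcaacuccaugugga
miR-100-5p: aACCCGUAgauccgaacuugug
let-7a-5p: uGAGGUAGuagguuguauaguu
miR-125b-5p: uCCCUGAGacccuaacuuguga
miR-181a-5p: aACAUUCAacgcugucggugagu
miR-181b-5p: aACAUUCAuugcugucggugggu
miR-503-5p: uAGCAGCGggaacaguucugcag
miR-22-3p: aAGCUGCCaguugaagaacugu
Of these 9, miR-181a-5p and miR-181b-5p share a seed, and the microRNAs of MIR194-2HG and MIR100HG each have a seed of their own. MIR194-2HG, the gut and liver host, stood at 0.666, 2.71 and 0.906 CPM in SW480 and 12.1, 20.6 and 7.74 CPM in SW620 (log2 fold change 3.26 ± 0.56, adjusted p = 0.00220). MIR100HG stood at 0.610, 1.55 and 0.963 CPM in SW480 and 13.7, 14.6 and 3.87 CPM in SW620 (log2 fold change 3.37 ± 0.56, adjusted p = 0.00187), and MIR181A1HG at 1.33, 2.58 and 1.13 CPM in SW480 and 8.65, 12.3 and 4.49 CPM in SW620 (log2 fold change 2.34 ± 0.46, adjusted p = 0.00459). In these 3 hosts SW620 replicate 3 was the lowest SW620 library and replicate 2 the highest SW480 library, and the lines still did not overlap. MIR503HG stood at 32.1, 46.6 and 25.8 CPM in SW480 and 4.24, 3.64 and 3.51 CPM in SW620 (log2 fold change -3.19 ± 0.26, adjusted p = 3.06e-05), and MIR22HG at 23.4, 17.2 and 22.3 CPM in SW480 and 3.75, 4.92 and 5.93 CPM in SW620 (log2 fold change -2.10 ± 0.24, adjusted p = 2.01e-04). CASC10, the host of miR-1915, was lower as well (log2 fold change -2.11 ± 0.30, adjusted p = 7.20e-04). The miR-503 hairpin itself was counted separately, with 18, 18 and 7 counts in SW480 and 0, 4 and 2 in SW620. MIR200CHG, host of miR-200c and miR-141, stood at 1.17, 1.81 and 1.53 CPM in SW480 and 0.109, 0 and 0 CPM in SW620, at least 9.0-fold lower.

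Small nucleolar RNA host genes were mostly higher in SW620, where 13 of 25 tested members were higher and 1 was lower (median 0.70, against 0.03 over all tested genes). Host gene calls numbered 9 without SW480 replicate 1, 7 without SW480 replicate 3 and 9 without SW620 replicate 1, against 14 with all 6 libraries. These genes carry guide RNAs for ribosomal RNA modification in their introns. Their summed level ran from 866 to 911 CPM in SW480 and from 1348 to 1850.2 CPM in SW620. SNHG6 stood at 13.3, 16.1 and 15.1 CPM in SW480 and 44.2, 32.3 and 43.8 CPM in SW620 (log2 fold change 1.44 ± 0.18, adjusted p = 4.00e-04), and SNHG3 at 102, 84.3 and 77.7 CPM in SW480 and 255, 192 and 185 CPM in SW620 (log2 fold change 1.26 ± 0.20, adjusted p = 0.00125). The lower member, SNHG18, was under 2 CPM in every library (log2 fold change -3.05 ± 0.82, adjusted p = 0.0202), and its call was lost without SW480 replicate 1, SW480 replicate 3 or SW620 replicate 1 (adjusted p = 0.0794 to 0.117), with 52.6% of its counts in SW620 replicate 3 within reach of PEO4-type reads. Of 15 abundant polymerase III and processing RNAs 1 was higher and 1 lower, 13.3% in all and under the 30.5% of all tested genes. Polymerase III list calls numbered 1 without SW480 replicate 1, 1 without SW480 replicate 2, 1 without SW480 replicate 3, 1 without SW620 replicate 1, 6 without SW620 replicate 2 and 1 without SW620 replicate 3, against 2 with all 6 libraries. RN7SL2, the RNA of the signal recognition particle, had a log2 fold change of 0.81 ± 0.26 (adjusted p = 0.0400), a call that held in 7 of 13 alternatives and in none of those without a library except SW620 replicate 2 (adjusted p = 0.0852 to 0.149), and its near-identical copies make the count uncertain.

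Imprinted genes moved in both directions. PEG10 and SGCE, neighbours on chromosome 7 that are expressed from the paternal copy, were both at or under 2 CPM in SW480 and higher in SW620. PEG10 stood at 1.61, 2.00 and 1.93 CPM in SW480 and 183, 163 and 254 CPM in SW620 (log2 fold change 6.76 ± 0.26, adjusted p = 1.57e-06), and SGCE at 0.499, 0.838 and 0.340 CPM in SW480 and 15.5, 12.7 and 19.9 CPM in SW620 (log2 fold change 4.84 ± 0.37, adjusted p = 2.19e-05). IGF2, a growth factor expressed from the paternal copy, stood at 314, 568 and 509 CPM in SW480 and 13.8, 16.8 and 13.8 CPM in SW620 (log2 fold change -4.97 ± 0.28, adjusted p = 5.52e-06), with 75% of its exonic length under another annotated gene that includes it. PLAGL1 and GRB10 were lower, with log2 fold changes of -1.54 ± 0.15 and -1.18 ± 0.17. In all, 3 of 19 tested imprinted genes were higher and 4 lower. Their called share of 36.8% was near that of tested protein-coding genes, 35.9%, and of all tested genes, 30.5%. Of 32 cancer-testis genes only 8 were high enough to test, 3 were higher and 1 lower. MAGEB2 had no count in SW480 and stood at 2.34, 1.70 and 3.92 CPM in SW620, at least 15-fold higher. TEX15, a meiotic gene, was lower at 8.32, 7.74 and 7.48 CPM in SW480 and 0.707, 0.486 and 0.567 CPM in SW620 (log2 fold change -3.72 ± 0.32, adjusted p = 3.98e-05).

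**Figure D4:**
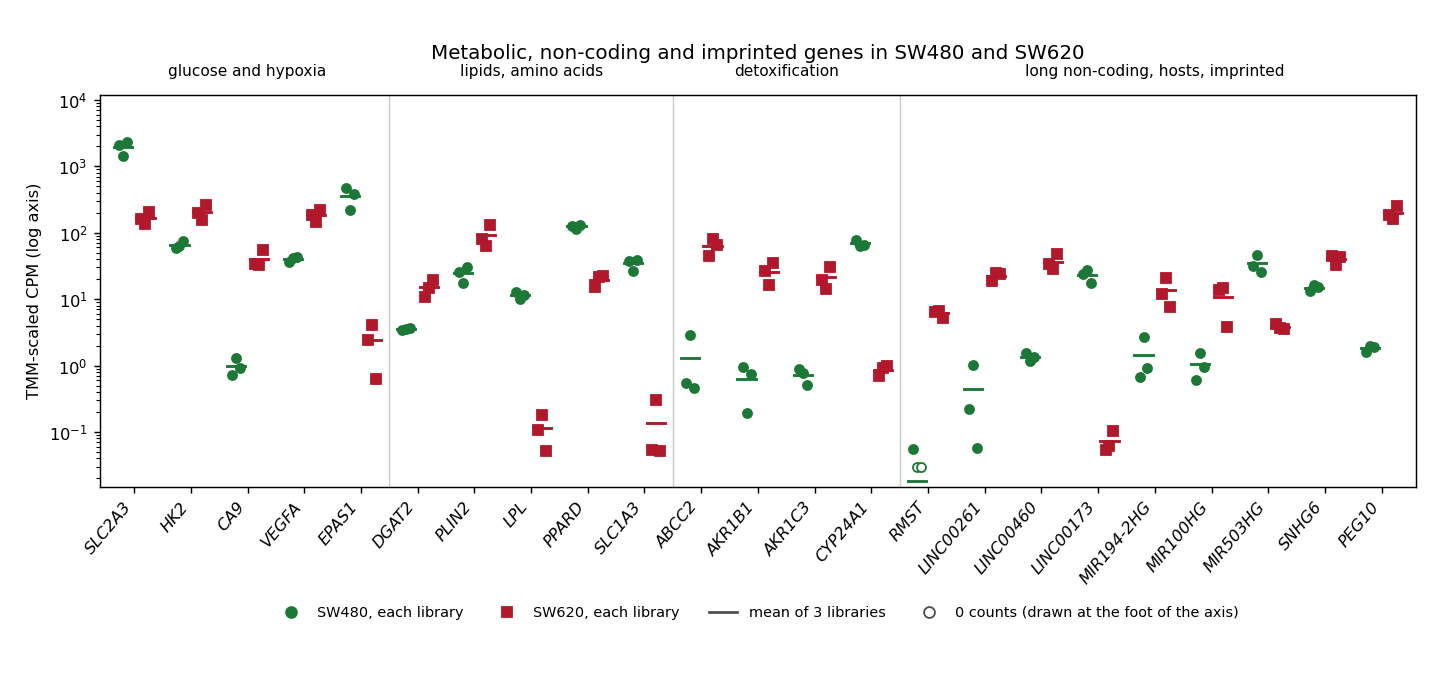
Points are single libraries (green circles SW480, red squares SW620) and bars the mean of 3, in TMM-scaled CPM on a log axis, with open symbols for 0 counts. HK2, CA9, VEGFA, DGAT2, PLIN2, ABCC2, AKR1B1, AKR1C3, RMST, LINC00460, MIR194-2HG and PEG10 are higher in SW620, and SLC2A3, EPAS1, LPL, PPARD, SLC1A3, CYP24A1, LINC00173 and MIR503HG are lower.

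Cell cycle genes were lower in SW620 in late phases. Of 30 G2 and mitosis genes 16 were lower and 0 were higher (median -0.73), and of 29 DNA replication genes 4 were lower and 0 higher (median -0.23). The called shares were 53.3% and 13.8%, so the replication list lay under the 35.9% of tested protein-coding genes. Mitosis calls numbered 8 without SW480 replicate 1, 10 without SW480 replicate 3 and 9 without SW620 replicate 1, against 16 with all 6 libraries. Replication calls numbered 2 without SW480 replicate 1, against 4 with all 6 libraries. CCNA2, which encodes cyclin A2, stood at 78.4, 44.0 and 74.1 CPM in SW480 and 24.4, 18.1 and 27.8 CPM in SW620 (log2 fold change -1.48 ± 0.25, adjusted p = 0.00216), and AURKA, a spindle kinase, at 91.2, 67.5 and 79.2 CPM in SW480 and 29, 22.8 and 38.9 CPM in SW620 (log2 fold change -1.39 ± 0.22, adjusted p = 0.00145). CDC6, which licenses replication origins, stood at 122, 81.0 and 104 CPM in SW480 and 50.5, 45.4 and 47.8 CPM in SW620 (log2 fold change -1.10 ± 0.18, adjusted p = 0.00185). Replicate 2 was the lowest library of each line for CCNA2, AURKA and CDC6, and the lines did not overlap.

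Outside the lists, large changes were in genes of varied function. Among the 15 highest protein-coding genes by log2 fold change above 10 CPM, beside PROM1 and SMOC2, were F5, which encodes coagulation factor V, at 0.222, 0.258 and 0.113 CPM in SW480 and 37.9, 38.4 and 55.0 CPM in SW620 (log2 fold change 7.76 ± 0.33, adjusted p = 2.06e-06), and WIPF1, which stabilises the actin regulator WASP, at 0.499, 0.322 and 0.453 CPM in SW480 and 78.5, 116 and 68.5 CPM in SW620 (log2 fold change 7.65 ± 0.32, adjusted p = 2.06e-06). TOX3, a chromatin protein of the mammary and gut epithelium, stood at 0.832, 0.774 and 1.42 CPM in SW480 and 107, 99.4 and 152 CPM in SW620 (log2 fold change 6.87 ± 0.31, adjusted p = 2.54e-06), and MME, the surface peptidase CD10, at 0.943, 1.23 and 1.81 CPM in SW480 and 157, 129 and 161 CPM in SW620 (log2 fold change 6.80 ± 0.27, adjusted p = 1.57e-06). Each stood under 2 CPM in every SW480 library. HBE1, embryonic globin, was called higher as well, but most of its exonic length lies under an overlapping gene. Other genes were lower. TGM2, a crosslinking transglutaminase, stood at 4234, 2149 and 3767 CPM in SW480 and 26.6, 28.5 and 18.7 CPM in SW620 (log2 fold change -7.10 ± 0.39, adjusted p = 5.19e-06), the largest fall in CPM of the called genes. The actin-linked genes ACTN4, FLNA, PLEC and AHNAK were also among the 10 largest falls in CPM, with log2 fold changes of -1.84 ± 0.30, -0.86 ± 0.24, -1.20 ± 0.20 and -2.48 ± 0.24. The call for FLNA was lost without SW480 replicate 1, SW480 replicate 3 or SW620 replicate 1 (adjusted p = 0.108 to 0.138). HPGD, which degrades prostaglandins, stood at 60.5, 46.1 and 62.0 CPM in SW480 and 0.218, 0.304 and 0.206 CPM in SW620 (log2 fold change -7.83 ± 0.27, adjusted p = 1.57e-06). PHLDB2, a membrane anchor of microtubules, stood at 375, 381 and 377 CPM in SW480 and 1.74, 2.92 and 0.722 CPM in SW620 (log2 fold change -7.73 ± 0.43, adjusted p = 5.42e-06), and DCLK1, a kinase used as a tuft cell marker, at 171, 86.1 and 116 CPM in SW480 and 0.816, 1.15 and 0 CPM in SW620 (log2 fold change -7.59 ± 0.65, adjusted p = 4.28e-05). GNG11, a G protein subunit, was at least 194-fold lower and KANK4 at least 129.9-fold lower.

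Neighbouring genes tended to differ in the same direction over long stretches of some chromosomes. The tested protein-coding genes were divided along each chromosome into 346 windows of 40 or more neighbours (GENCODE 29, GRCh38), and the quartiles of the window medians were -0.26 and 0.22. The 3 highest windows were adjacent on the long arm of chromosome 16. In chr16:69741867-75433485 36 of 40 genes were higher and none was lower, with a median of 1.48, and in chr16:66566393-67667265 36 of 40 were higher (median 1.44). Over 5 adjacent windows, chr16:56657694-84464187, 152 of 200 genes were higher (76.0%) and 13 were lower (6.50%), against 15.5% and 20.5% of all protein-coding genes tested. Per library, the median gene of that stretch stood 1.20, 1.18 and 1.36 log2 units above the SW480 mean in SW620, and -0.08 to 0.05 in the SW480 libraries. The window before it, chr16:46955362-56640087, had a median of 0.66 with 20 of 40 genes higher and 7 lower. The first 9 windows of the chromosome had a median of 0.18, and the last window, from chr16:84476421 on, one of 0.08. CDH3 and CDH11 were among the 13 exceptions, with the metallothioneins MT1F and MT1X (MT1X lost its call without SW480 replicate 1, SW480 replicate 3 or SW620 replicate 1, adjusted p = 0.0909 to 0.119) and the steroid enzyme HSD17B2 (log2 fold change -4.30 ± 0.29, adjusted p = 1.20e-05).

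A run of lower genes lay at the start of chromosome 13. In its first 3 windows, chr13:19633681-49209779, 89 of 120 genes were lower and 1 was higher, with a median of -1.07. The exception was LCP1, an actin bundler of blood cells, at 3.44, 3.10 and 2.95 CPM in SW480 and 239.7, 155 and 293 CPM in SW620 (log2 fold change 6.18 ± 0.30, adjusted p = 2.79e-06). The remaining 3 windows to the end of the chromosome had a median of 0.27, with 36 of 122 genes higher and 22 lower. Chromosome 5 changed direction along its length. In chr5:14581775-95284575 108 of 200 genes were higher and 27 lower (median 0.75), and in chr5:95461755-181261139 31 of 383 were higher and 112 lower (median -0.38). On chromosome 10, chr10:42782801-87370695 had a median of 0.75, with 87 of 160 genes higher, and on chromosome 7, chr7:98106885-107564514 had a median of -0.79, with 62 of 120 lower. In each of these stretches every SW620 library had a median of the same sign as the whole. Other windows were low as well, among them chr19:42866464-44305046 (median -0.95) and chr19:49118397-50382982 (median -0.81). In each of these windows 22 of 40 genes were lower and 0 higher. The stretches and windows were chosen after their values were seen, so their medians describe them without a test. They are RNA levels, and DNA copy number was not measured.

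**Figure D5:**
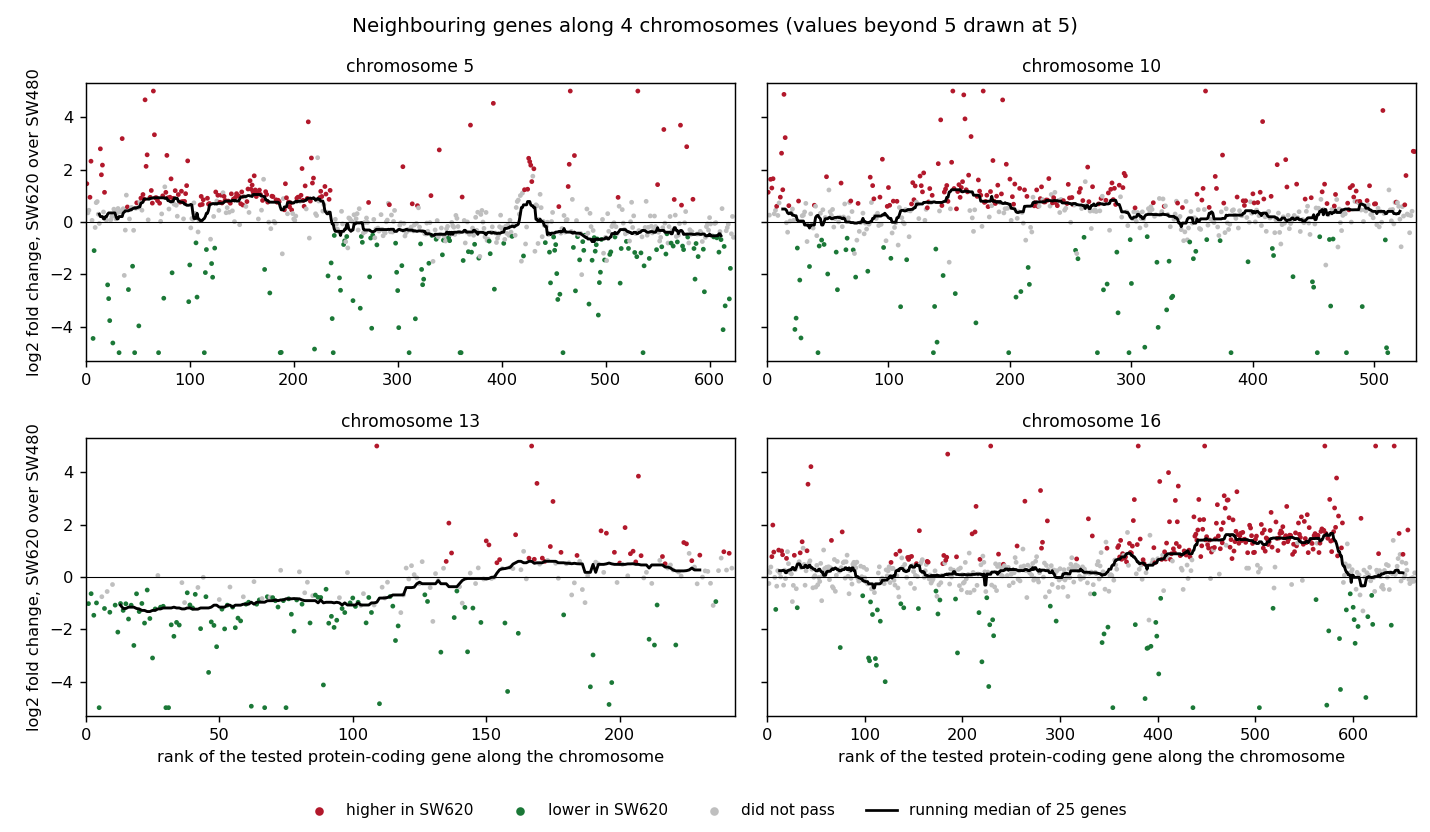
Each point is a tested protein-coding gene in its order along chromosomes 5, 10, 13 and 16, with its log2 fold change of SW620 over SW480 on the vertical axis (values beyond 5 drawn at 5), and the black line is the running median of 25 genes. The line steps from above to below 0 on chromosome 5, lies near -1 over the first part of chromosome 13 and stands above 1 over a block of chromosome 16 before it returns to 0.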

How the data were processed

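The 6 libraries of the untreated lines SW480 and SW620 (3 each) hold whole-number gene counts as deposited by the authors. The submitters' processing notes name Trimmomatic 0.36, STAR 2.5.2b, featureCounts of Subread 1.5.2, DESeq2 and the build GRCh38. The annotation release and the use of strand are not given in the sources used here, so overlapping and antisense genes cannot be told apart with certainty. Positions, gene types and exon overlaps came from GENCODE 29 (GRCh38). Genes were filtered with edgeR's filterByExpr, scaled by TMM and tested with edgeR 4.0.16 (quasi-likelihood, two-sided, R 4.3.3), with Benjamini-Hochberg adjustment over all 20941 tested genes and a threshold of 0.05. The labels call the replicates biological, without naming separate cultures, so p-values measure the spread between these libraries. A line with at most 3 counts in each library is given as a lower bound against that floor, which like the stray-read share covers counting error only. Of the named genes, each list gives up to 3 highest and 3 lowest called members at 5 CPM or more without overlap, to which were added the largest changes over all genes and defining members. The members, lists and comparisons were chosen with earlier results of these data known. Alternatives were DESeq2 1.42.0, other scalings and filters, all 12 libraries in 1 model, a replicate block and leaving out each library. The test was checked on simulated data. Some genes and gene lists are not reported here.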

Additional observations from a re-analysis of the deposited data

How the results depend on the processing

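No called gene reversed its direction in any of the 13 alternatives, and 3747 of the 6385 calls held in every alternative that gave a value. The labels do not say whether the replicate numbers pair the libraries. Deviations of same-numbered libraries correlated by 0.016, 0.67 and 0.57 for replicates 1, 2 and 3. Replicate 2 of one line and replicate 3 of the other correlated by -0.58 and -0.63, and SW480 replicate 1 correlated best with SW620 replicate 3. Replicates 2 and 3 thus shifted alike in both lines, a shared shift that the main test does not model. A fit with the replicate block called 10667 genes, 5111 higher and 5556 lower, and among them 7 of 13 genes encoded by mitochondrial DNA, 13 of 37 citric acid cycle genes and 19 of 29 glycolysis genes, against 0, 4 and 8. Leaving out 1 library moved the count between 4253 and 7419, with 1825 to 3656 higher and 2408 to 4192 lower. The low end came without SW480 replicate 1, and 4463 and 4391 genes were called without SW480 replicate 3 and without SW620 replicate 1. Without SW620 replicate 3, 5819 of the 6385 calls were kept. Of 280 named genes 242 kept their side of the threshold in every alternative, 33 lost it in some and 5 gained it in some. When genes were chosen without SW620 replicate 3, an alternative added after seeing the data, the stray-read share of SW480 replicate 1 was 0.26% against 0.65%, that of SW480 replicate 2 0.49% against 0.30% and that of SW620 replicate 1 0.21% against 0.12%. That of SW620 replicate 3 was 1.01% over genes above 50 CPM in PEO4, a minimum that left no gene for the other 5 libraries. Small differences in genes with few counts are beyond this depth.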

Other observations

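Families outside the lists, chosen after their values were seen and given as counts without a test, included the translation machinery. The background for these counts is the 14300 tested protein-coding genes, of which 2213 were higher and 2925 lower, 35.9% in all. Of 79 tested ribosomal protein genes 21 were higher in SW620, none was lower and 77 had a log2 fold change above 0 (median 0.64). Their called share in either direction was under that background, but all of their calls were higher, while the background held more lower than higher genes. Without SW620 replicate 3 the median was 0.30 and 14 were higher. Their summed level overlapped between the lines, at 30350, 25029 and 38334 CPM in SW480 and 45964, 33334 and 67131 CPM in SW620. Of 17 translation factors and other genes with a 5′ oligopyrimidine tract 7 were higher (median 0.68), and without SW620 replicate 3 4 were higher (median 0.45). Clustered protocadherins, neural adhesion molecules, were higher in 7 and lower in 1 of 27 tested members (median 0.65). This called share in either direction was also under the background, although most of these calls were higher, and members of the gamma cluster share exons. Of 31 collagens 11 were lower and 4 higher (median -0.85), and of 26 ADAM and ADAMTS proteases 10 were lower and 3 higher (median -0.51). Of 6 metallothioneins, which bind metals, MT1E, MT1F, MT1X and MT2A were lower and MT1G higher. Of 6 tested UGT genes, which encode sugar transferases, 5 were lower (median -3.01), namely UGT8 and 4 UGT1A members, which share exons, so their counts cannot be told apart.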
